A study of Macaca mulatta with 36 samples.

Results

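Collagens, laminins, fibulins and fibrillins build the extracellular matrix, and matrix metalloproteinases (MMPs), ADAMTS proteases and tissue inhibitors of metalloproteinases (TIMPs) cut it or restrain the cutting. Genes of these families were measured in the hippocampus of rhesus macaques with SIV encephalitis (SIVE), the brain inflammation that follows infection with simian immunodeficiency virus, and of uninfected Control macaques. Members were taken by symbol: every gene whose probe set carried exactly 1 symbol beginning with COL and a number followed by A, LAMA, LAMB or LAMC, MMP, ADAMTS, TIMP, FBLN or FBN. This gave 95 of the 14132 genes that had such a probe set. The 95 genes were measured by 179 probe sets, and each gene was represented by whichever of its probe sets was brightest on average.

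All 18 animals were male, 9 with SIVE and 9 Control, and each was measured on 2 Affymetrix rhesus arrays, 36 arrays in all. The SIVE animals were 2 to 6 years old and the Control animals 3 to 8 years old. An anti-CD8 treatment was recorded for 4 SIVE animals, all 6 years old, and for 2 Control animals. Neither its agent, dose and time nor the virus strain is given by the labels. No infected animal without encephalitis was among the samples, so infection and encephalitis cannot be told apart. Arrays report relative signal on a log2 scale, on which 1 unit is a doubling, and their number limits the precision. In bulk tissue, fewer cells of a type and less RNA per cell cannot be told apart.

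In brain, most of the fibrous matrix found in other organs is confined to the meninges and to the walls of blood vessels. Vessels are wrapped by an endothelial basement membrane, and larger ones also by a parenchymal basement membrane laid down by astrocyte endfeet and leptomeningeal cells. Both hold collagen IV, laminins, nidogens and perlecan. Between neurons the matrix consists largely of hyaluronan, lecticans such as brevican, and tenascins. MMPs and ADAMTS proteases cut these components, TIMPs bind and block the proteases, and leukocytes that enter the brain pass the vascular basement membranes.

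SIVE 2, SIVE 3 and Control 8 stood apart before any comparison. These 3 animals, which all carried the anti-CD8 label, had 3′ minus 5′ signals of GAPDH, ACTB and EEF1A1 between 0.955 and 1.45 on the log2 scale. The other 15 animals lay between 0.104 and 0.466 on the same scale, commonly read as a sign of RNA quality. Results are given with and without these 3 animals where they differ. Of 7 measured marker genes of hippocampal pyramidal and granule neurons, 6 lay at or above 5.65, the median level of all probe sets. The mean of this list was 7.89 to 8.04 in the 3 animals and 8.28 to 8.59 in the other 15.

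Few of the matrix genes differed between the groups, and the differences were small. In SIVE hippocampus 5 of the 95 rose: ADAMTSL4, COL6A3, ADAMTS6, LAMA4 and LAMA1. ADAMTS18 and COL9A1 fell, and the other 88 did not pass the threshold, an adjusted p under 0.05 by limma with Benjamini-Hochberg adjustment over 52707 probe sets. On the representative probe sets no matrix gene differed by 2-fold or more. Those differences ran from -0.55 to 0.74 on the log2 scale, SIVE minus Control. Another TIMP1 probe set, described below, differed by 1.83.

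The 5.26% of matrix genes that rose and the 2.11% that fell were close to the background. Over 1 probe set for each of the 14132 named genes, 5.72% rose and 1.51% fell, and over all probe sets 3.63% rose and 1.3% fell. At an unadjusted p under 0.05, 14 matrix genes were higher and 17 lower, which is 32.6% of the 95, against 25.6% of the named genes. With each array's median subtracted, 5 matrix genes rose and 1 fell, beside 4.10% and 0.755% of all probe sets. With the anti-CD8 label as a covariate 6 rose and 11 fell, beside 4.76% and 5.28% of all probe sets. Without SIVE 2, SIVE 3 and Control 8 the same 5 genes rose, and COL9A1, ADAMTSL2 and COL10A1 fell, beside 4.76% and 2.47% of all probe sets.

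Most differences were on the negative side. Of the 95, 32 were positive and 63 negative, with a median of -0.08. The median of the named genes was -0.02 and that of all probe sets -0.04. The share of negative differences over all named genes is not given here. With array medians subtracted, 37 were positive and 58 negative, and after a further quantile normalisation 28 and 67. The spread between animals of a group, pooled over both groups, had a median SD of 0.209 for the matrix genes and 0.204 for the named genes. The SD between the 2 arrays of an animal had a median of 0.138.

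**Figure D1:**
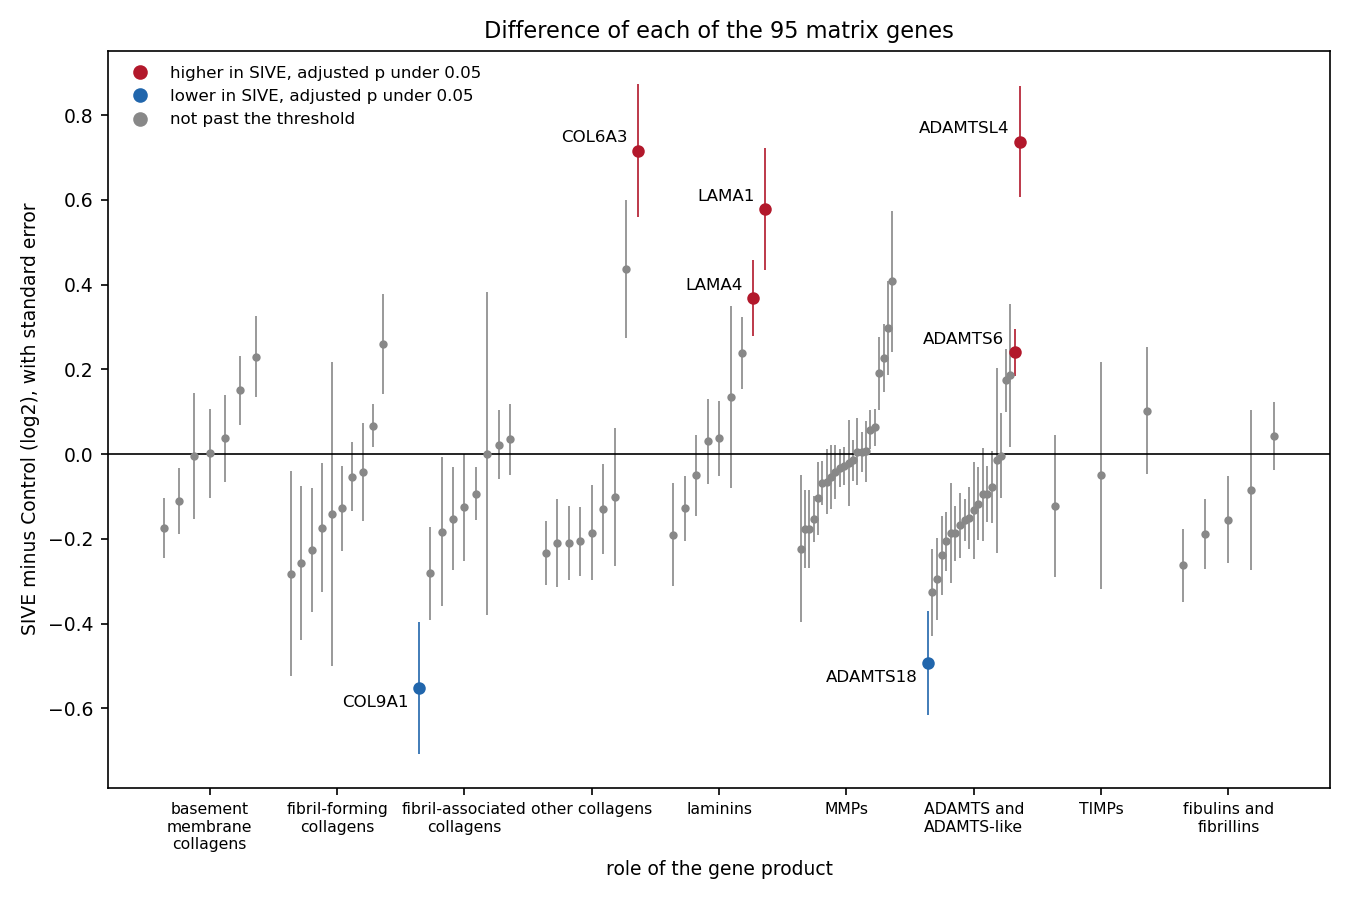
Difference between SIVE and Control (log2, vertical axis) for each of the 95 matrix genes, ordered by size within 9 roles; bars are standard errors, red and blue points passed the threshold. The 7 genes past it lie in 4 of the 9 roles, and all but those 7 are grey.

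Laminins are trimers of an alpha, a beta and a gamma chain and form the first sheet of a basement membrane. Of 9 laminin genes, 2 rose, none fell and 7 did not pass, with a median difference of 0.04. Both that rose encode alpha chains. LAMA4, the alpha chain of endothelial basement membranes, ranged from 6.61 to 7.27 with a median of 7.04 in SIVE, and from 6.33 to 6.90 with a median of 6.67 in Control. Of the 9 SIVE animals, 7 lay above every Control animal, and SIVE 1 and SIVE 8 lay among them. LAMA4 was higher by 0.37 ± 0.089 (standard error, n = 9 in each group), a 1.29-fold difference with an adjusted p of 0.0183.

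LAMA1, the alpha chain of laminin-111, which in brain lies in the pial and parenchymal basement membranes, had a lowest, median and highest value of 6.37, 6.94 and 7.31 in SIVE and 5.65, 6.43 and 6.70 in Control. Again 7 of the 9 SIVE animals were above all Control animals. The difference was 0.58 ± 0.14, or 1.49-fold, with an adjusted p of 0.0221. For both genes the second probe set did not follow. LAMA4's second probe set was lower by 0.19 (adjusted p = 0.104) and LAMA1's by 0.08 (adjusted p = 0.496), so both calls rest on 1 of 2 probe sets. With the mean over a gene's probe sets, neither passed (adjusted p = 0.353 for LAMA4 and 0.129 for LAMA1).

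The other laminin chains named here did not pass. LAMC1, the gamma chain shared by most laminins, ranged from 7.35 to 8.02 in SIVE and from 7.31 to 7.74 in Control. Its difference was 0.24 with a 95% interval from 0.06 to 0.42 (adjusted p = 0.116). LAMA2, whose loss causes a muscular dystrophy in humans, differed by 0.04 with an interval from -0.15 to 0.22. LAMB1, the beta chain of laminin-111 and laminin-411, differed by 0.03 with an interval from -0.18 to 0.24, while its second probe set was higher by 0.30 (adjusted p = 0.0397).

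Some endothelial markers were also higher. Of 10 measured endothelial genes, PECAM1, CDH5 and VWF rose and 7 did not pass. The mean level of the list ran from 6.76 to 7.43 in SIVE and from 6.60 to 7.19 in Control. None of 5 pericyte and smooth muscle markers and none of 8 fibroblast markers passed by limma, with 2 and 1 at an unadjusted p under 0.05. Of those 8, DCN and LUM also stand in the proteoglycan list below. The part of vessel content in the laminin differences was not tested.

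Collagens of basement membranes showed no call by limma: 0 of 7 passed in either direction, and 2 had an unadjusted p under 0.05. COL18A1, the heparan sulfate collagen that releases endostatin, was bright in every animal, from 10.55 to 10.97 in SIVE and from 10.45 to 11.05 in Control. Its difference was 0.15 with an interval from -0.02 to 0.32 (adjusted p = 0.298). COL4A1 and COL4A2, the main chains of vascular collagen IV, had no probe set carrying their symbol alone and were not analysed here. Of 11 measured partners in basement membranes, such as nidogens and agrin, none passed, with 2 at an unadjusted p under 0.05.

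Collagen VI forms beaded filaments that link basement membranes to the surrounding matrix, and the strongest collagen result was its alpha 3 chain. COL6A3 had values of 5.32 to 6.50 with a median of 6.06 in SIVE, against 4.55 to 5.73 with a median of 5.27 in Control. SIVE 1 and SIVE 5 were the lowest of their group and overlapped with Control, and the other 7 SIVE animals lay above every Control animal. The difference was 0.72 ± 0.16, or 1.64-fold, with an adjusted p of 0.00881.

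The other collagen VI chains did not pass. COL6A1, the alpha 1 chain, was at 6.34 to 7.57 in SIVE and 5.99 to 7.08 in Control. It differed by 0.44 with an interval from 0.10 to 0.78 (adjusted p = 0.133). Its other 2 probe sets were lower by 0.24 and 0.08, neither past the threshold. COL6A2 differed by -0.10 with an interval from -0.44 to 0.24. Whether the 3 chains differ from each other in their response was not tested. Of the 9 collagens in this mixed group, which also holds anchoring and transmembrane forms, 1 rose, none fell and 8 did not pass.

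None of the 10 fibril-forming collagens passed by limma, and 1 had an unadjusted p under 0.05. COL1A1 differed by -0.26 (adjusted p = 0.434) and COL3A1, its partner in soft tissue and vessel walls, by -0.13 (adjusted p = 0.482). COL1A2 had the second widest spread of all 95 genes, with a pooled SD of 0.827. It ran from 5.83 to 8.11 in SIVE and from 5.40 to 8.27 in Control, and its interval, from -0.89 to 0.61, left differences in both directions possible. COL5A2, which limits fibril width, was at 9.34 to 9.53 in SIVE and 9.09 to 9.47 in Control and differed by 0.07.

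Collagen IX, a fibril-associated collagen best known from the surface of cartilage fibrils, gave the only collagen that fell. COL9A1 ranged from 7.31 to 8.22 with a median of 7.63 in SIVE, and from 7.66 to 9.02 with a median of 8.13 in Control. Of the SIVE animals 5 lay below every Control animal, and SIVE 3 lay above the Control median. The difference was -0.55 ± 0.16, a SIVE over Control ratio of 0.682, with an adjusted p of 0.0465. COL9A1 had the highest adjusted p of the 7 calls, and leaving out 1 animal at a time moved it between 0.0192 and 0.0889. It stayed under 0.05 without SIVE 2, SIVE 3, Control 2, Control 4 or Control 6, and not without any of the other 13 animals. Its second probe set, near the dim end of the array, was lower by 0.17 (adjusted p = 0.157).

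COL9A2 and COL9A3, the other 2 chains of collagen IX, did not pass over all animals. They differed by -0.18 (adjusted p = 0.579) and -0.28 (adjusted p = 0.154). Their values by anti-CD8 label follow below.

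**Figure D2:**
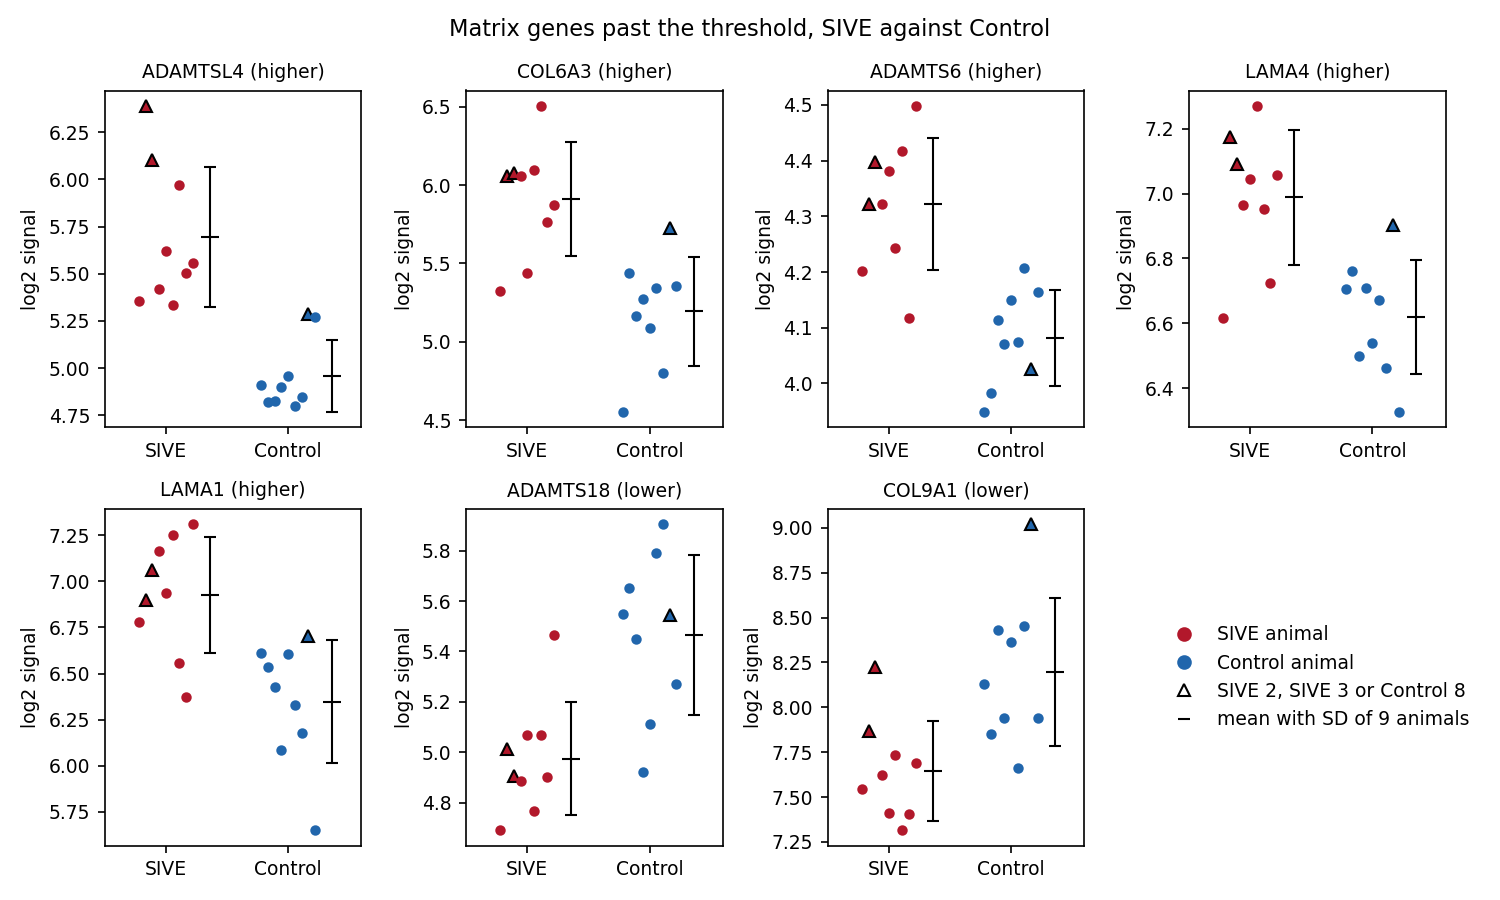
Log2 signal (vertical axis) in each animal for the 7 matrix genes past the threshold; each point is the mean of an animal's 2 arrays, SIVE left in red and Control right in blue, and bars give the mean with the SD of 9 animals. Triangles mark SIVE 2, SIVE 3 and Control 8; the groups are apart for ADAMTSL4 and overlap for the other 6.

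ADAMTS proteases are secreted metalloproteinases that cut lecticans, procollagens or fibrillin microfibrils, and the ADAMTS-like proteins share their ancillary domains and have no protease domain. Of 21 genes in these families, 2 rose, 1 fell and 18 did not pass. Of the 21 differences 17 were negative, beside 63 of all 95. With array medians subtracted 15 were negative, beside 58 of all 95.

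ADAMTSL4, an ADAMTS-like protein that binds fibrillin-1 microfibrils and whose loss displaces the lens in humans, had the largest difference among the 95 representative probe sets. It was at 5.34, 5.56 and 6.39 (lowest, median, highest) in SIVE and at 4.80, 4.90 and 5.29 in Control. On the representative probe sets it was the only matrix gene for which every SIVE animal lay above every Control animal. That pattern was seen for 1.84% of the named genes. The reverse pattern, every SIVE animal below every Control animal, was seen for 0 matrix genes and for 0.106% of the named genes. The difference was 0.74 ± 0.13, or 1.67-fold, with an adjusted p of 0.00143. SIVE 2 and SIVE 3 were the highest SIVE animals and Control 8 the highest Control animal. Without these 3 the difference was 0.62 (adjusted p = 0.000349).

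ADAMTS6, a protease of the subfamily that acts around fibrillin microfibrils, rose by a small amount at a low signal. It ran from 4.12 to 4.50 with a median of 4.32 in SIVE and from 3.95 to 4.21 with a median of 4.07 in Control, and 7 of the 9 SIVE animals were above all Control animals. The difference was 0.24 ± 0.055, or 1.18-fold, with an adjusted p of 0.0123. All these levels lay under the median of all probe sets, and the second ADAMTS6 probe set was lower by 0.11 (adjusted p = 0.346).

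ADAMTS18, a secreted ADAMTS protease, was at 4.69, 4.91 and 5.46 in SIVE and at 4.92, 5.55 and 5.90 in Control. Every SIVE animal was below the Control median, and 5 were below every Control animal; SIVE 9 was the high exception. The difference was -0.49 ± 0.12, a SIVE over Control ratio of 0.711, with an adjusted p of 0.0228. Its second probe set differed by -0.21 (adjusted p = 0.225). Without SIVE 2, SIVE 3 and Control 8 the difference was -0.48 and just missed the threshold (adjusted p = 0.0514).

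The proteases that cut lecticans in brain did not pass. ADAMTS1 ran from 5.84 to 7.33 in SIVE and from 6.18 to 6.96 in Control, a difference of 0.19 with an interval from -0.17 to 0.54. ADAMTS4 ran from 7.21 to 9.07 in SIVE and from 7.29 to 8.51 in Control, a difference of -0.01 with an interval from -0.47 to 0.44. ADAMTS10, a microfibril protease, differed by -0.003 with an interval from -0.21 to 0.21. Its other probe sets were lower by 0.35 (adjusted p = 0.171) and 0.16 (adjusted p = 0.166). Among 17 measured genes of the hyaluronan matrix, the brevican gene BCAN, which encodes a lectican, fell by 0.51 (adjusted p = 0.0335). In that list CD44, the hyaluronan receptor of leukocytes and glia, rose by 1.24 (adjusted p = 4.33e-07), and HAPLN2, a link protein found at nodes of Ranvier, rose by 0.62 (adjusted p = 0.0374).

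None of the 22 MMP genes passed by limma in either direction, and 5 had an unadjusted p under 0.05. MMP2 and MMP9 are the gelatinases, which cut collagen IV. MMP2 ranged from 5.87 to 6.90 with a median of 6.13 in SIVE and from 5.61 to 6.68 with a median of 5.83 in Control. All 9 SIVE animals were above the Control median, yet Control 8 at 6.68 exceeded 6 of them. SIVE 2, SIVE 3 and SIVE 7 were high, between 6.83 and 6.90. The MMP2 difference was 0.41 with an interval from 0.06 to 0.76 (adjusted p = 0.171). Without SIVE 2, SIVE 3 and Control 8 it was 0.34 (adjusted p = 0.0866). The second MMP2 probe set was lower by 0.13 (adjusted p = 0.267). With the mean over both probe sets, MMP2 differed by 0.14 (adjusted p = 0.473).

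MMP9 was dim in every animal, at 4.93 to 5.46 in SIVE and 4.75 to 5.32 in Control. Its difference was 0.19 with an interval from 0.01 to 0.37 (adjusted p = 0.215), and the groups overlapped in 6 of the 9 SIVE animals. MMP14, the membrane protease that activates the MMP2 proenzyme, differed by 0.01 with an interval from -0.15 to 0.16. MMP24, a membrane protease of the nervous system, also differed by 0.01, with an interval from -0.16 to 0.17. The second MMP24 probe set was lower by 0.17 (adjusted p = 0.0911). Of the 22, 12 had mean levels under the median of all probe sets, MMP1, MMP3 and MMP13 among them.

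TIMPs gave the result that depended most on the probe set. By limma none of the 3 genes passed with its representative probe set, and 0 had an unadjusted p under 0.05. TIMP2 differed by -0.05 with an interval from -0.61 to 0.51, and TIMP3, which binds to the matrix, by -0.12 with an interval from -0.47 to 0.23. For TIMP1, a secreted inhibitor induced in reactive astrocytes in rodents, the representative probe set was at 8.54, 9.36 and 9.61 in SIVE and 8.38, 9.24 and 9.59 in Control. Its difference was 0.10 with an interval from -0.21 to 0.42 (adjusted p = 0.736). The TIMP1 probe set with the lowest mean differed by 0.01 (adjusted p = 0.987).

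The TIMP1 probe set with the second highest mean behaved otherwise. It was singled out after its values were seen. It was at 8.69, 9.41 and 10.69 in SIVE and 6.72, 7.91 and 8.60 in Control, so that every SIVE animal lay above every Control animal. The difference was 1.83 ± 0.27, or 3.56-fold, with an adjusted p of 0.000177, larger than that of any of the other 178 probe sets. It passed in all 12 alternatives that gave it a value and without each of the 18 animals in turn. SIVE 2, SIVE 7 and SIVE 3 were the highest SIVE animals, at 10.69, 10.54 and 10.20, and Control 8 the highest Control animal.

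On the other 2 TIMP1 probe sets SIVE 2, SIVE 3 and Control 8 were among the lowest animals. On the one with the lowest mean they were at 6.58, 6.93 and 6.58, and no other animal was below 7.51. Without these 3 animals the difference stayed at 1.70 for the probe set with the second highest mean (adjusted p = 0.000212). It was 0.15 for the representative (adjusted p = 0.297). With the mean over the 3 probe sets and all animals kept, TIMP1 rose by 0.65 by limma (adjusted p = 0.000813). Which of the 3 probe sets follows the TIMP1 transcript was not tested, since the annotation used here gives all of them the same gene and no sequences.

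**Figure D3:**
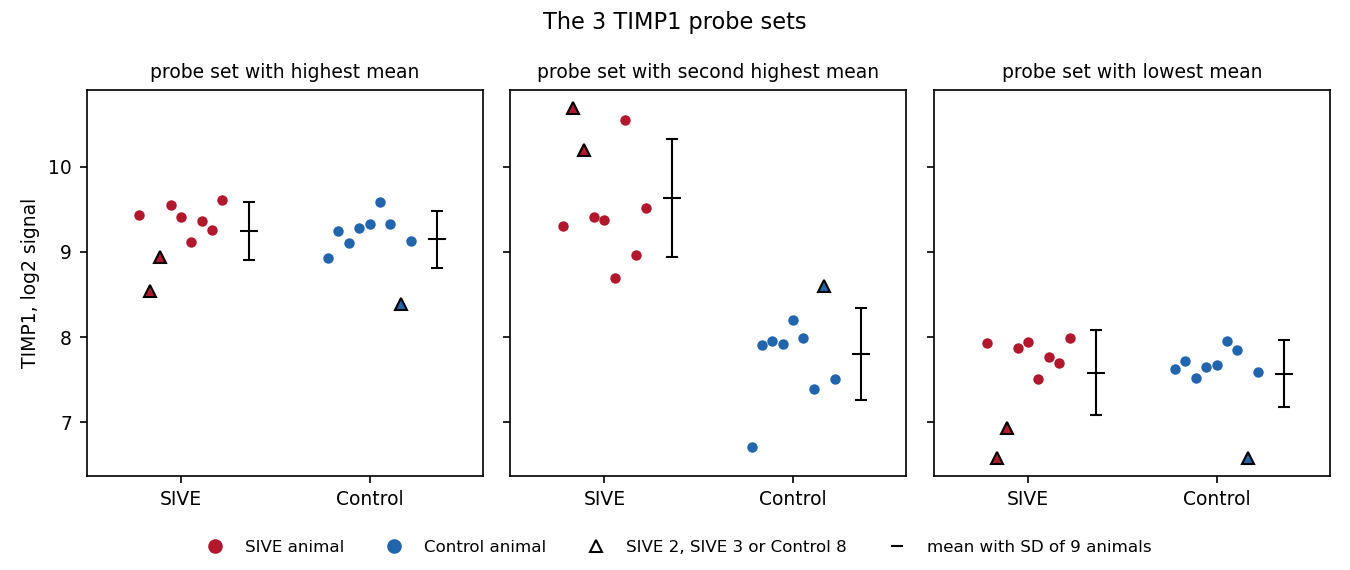
Log2 signal (vertical axis, shared) in each animal for the 3 TIMP1 probe sets, SIVE left in red and Control right in blue, with the mean and SD of 9 animals; triangles mark SIVE 2, SIVE 3 and Control 8. Only the probe set in the middle separates the groups, while on the outer 2 the triangles lie at the low end.

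None of the 5 fibulin and fibrillin genes passed by limma, and 2 had an unadjusted p under 0.05. FBN1, which encodes the backbone of microfibrils, was at 8.09 to 8.58 in SIVE and 8.01 to 8.60 in Control and differed by 0.04. Its other probe sets differed by 0.36 (adjusted p = 0.0803), 0.22 (adjusted p = 0.318) and -0.21 (adjusted p = 0.247). On the representative probe sets of the 5 genes 4 differences were negative, with a median of -0.15. Of 7 measured elastic fibre partners none passed, with 0 at an unadjusted p under 0.05.

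Other probe sets of the same genes gave a check within the array. The 55 genes with more than 1 probe set had 84 further probe sets, of which 56 shared the sign of the representative. Of the 84, 2 rose, those of TIMP1 and LAMB1, and 1 fell, a probe set of MMP28 at -0.29 (adjusted p = 0.0386). ADAMTSL4 and COL6A3 each had 1 probe set, so no second measurement of them existed here. The mean levels of both lay under the median of all probe sets.

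Some genes outside the 95 that belong to the same pathways gave larger differences than any of the 95 representative probe sets. Among 21 measured interstitial glycoproteins and matricellular proteins 6 rose, none fell and 15 did not pass. The 4 with the smallest adjusted p were SPP1, FN1, TNC and ECM2. SPP1, which encodes osteopontin, was higher by 1.23 and FN1, which encodes fibronectin, by 0.93, with adjusted p-values of 1.55e-05 and 4.23e-05. TNC, which encodes tenascin-C, was higher by 0.84 and ECM2, a matrix protein gene, by 0.38.

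The protease and crosslinking lists held 1 call each. Of 17 collagen processing genes LOXL2, a lysyl oxidase that crosslinks collagen, rose by 0.61 (adjusted p = 0.00989). Of 10 activators, inhibitors and receptors of matrix proteases SERPINE2, an inhibitor of thrombin and plasminogen activators, fell by 0.23 (adjusted p = 0.0431). Of 7 measured ADAM genes ADAMDEC1, a protease gene of macrophages and dendritic cells, rose by 2.35 (adjusted p = 0.000285). None of 8 small leucine-rich proteoglycans passed, and 3 had an unadjusted p under 0.05. Over these lists the median difference ran from -0.11 for the hyaluronan matrix to 0.21 for the ADAM genes.

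Macrophage markers also differed between the groups. Of 12 measured macrophage and microglia markers 5 rose, among them PTPRC, LYZ, VSIG4 and CD14, and 7 did not pass. The mean level of the list was 7.76 to 8.57 in SIVE and 7.21 to 7.78 in Control. Of 5 astrocyte markers GFAP rose by 0.36 and SLC1A2 fell by 0.52. Of 5 neuron markers 1, TUBB3, fell, by 0.51. The mean of the neuron list was 10.46 to 10.60 in SIVE 2, SIVE 3 and Control 8 and 10.64 to 11.28 in the other 15 animals. None of 5 choroid plexus markers passed, with 0 at an unadjusted p under 0.05. The part of cell content in the differences of the matrix genes was not tested.

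The widest variation among the matrix genes lay within the groups. COL14A1, TIMP2 and LAMB2, none of them past the threshold between SIVE and Control, had pooled SDs of 0.878, 0.616 and 0.490; COL14A1, LAMB2 and COL6A2 were named after their values were seen. COL14A1, a fibril-associated collagen, was at 4.88 to 5.32 in SIVE 2, SIVE 3 and Control 8 and at 6.36 to 7.82 in the other 15 animals. TIMP2 was at 6.45 to 6.82 in the 3 animals, against 7.56 to 8.68 in the other 15. LAMB2, the beta chain of synaptic and vascular laminins, was at 8.19 to 8.70 in the 3, against 6.94 to 7.53.

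In all, 3 matrix genes (COL6A2, FBN1 and LAMB2) lay above and 2 (COL14A1 and TIMP2) below every other animal in these 3. That is 3.16% and 2.11% of the 95, against 8.51% and 9.68% of the named genes. The part of RNA quality in these values was not tested.

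**Figure D4:**
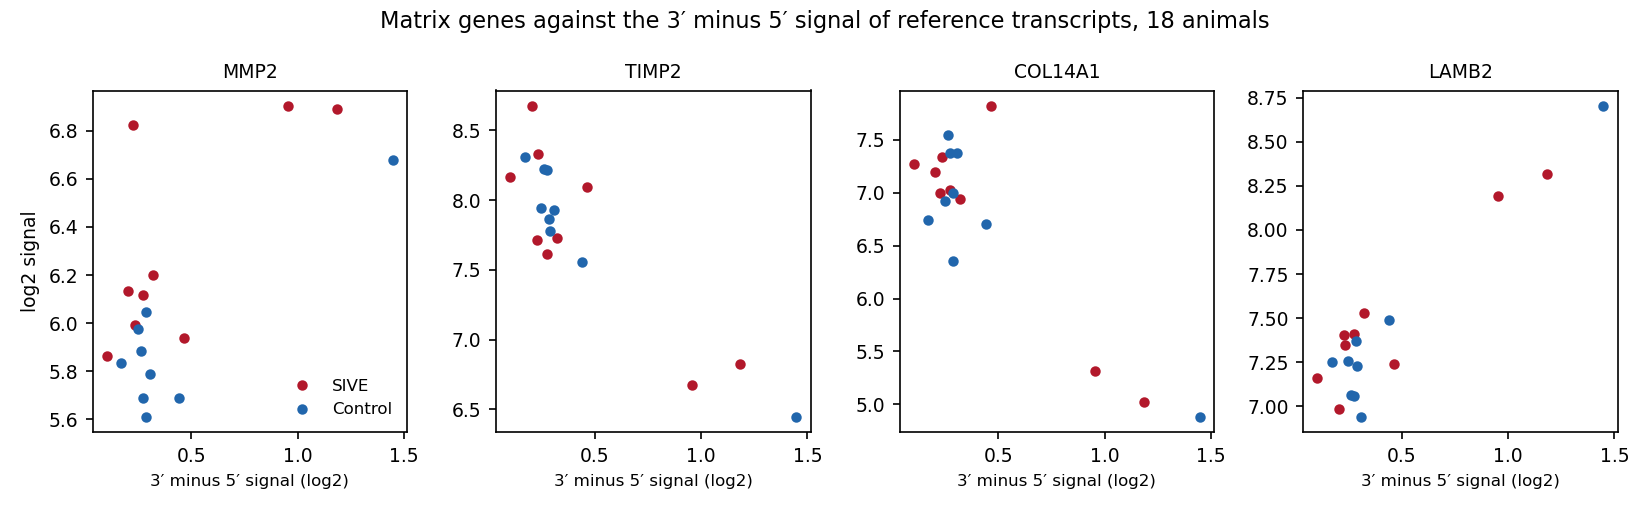
Log2 signal (vertical axes) of MMP2, TIMP2, COL14A1 and LAMB2 against the 3′ minus 5′ signal of GAPDH, ACTB and EEF1A1 (log2, horizontal axes) in the 18 animals, SIVE in red and Control in blue. SIVE 2, SIVE 3 and Control 8 lie at the right, between 0.955 and 1.45, low for TIMP2 and COL14A1 and high for LAMB2 and MMP2.

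The anti-CD8 label split each group, and the comparison was repeated within its levels. Without anti-CD8, in 5 SIVE and 7 Control animals, ADAMTSL4 rose by 0.73 ± 0.15 (adjusted p = 0.00839) and COL6A3 by 0.84 ± 0.19 (adjusted p = 0.0182). COL9A3 fell by 0.42 ± 0.10 (adjusted p = 0.0346). Those 3 were the only calls among the 95, against 2.34% of all probe sets higher and 0.791% lower. With SIVE 2, SIVE 3 and Control 8 left out of the fit, whose spread all animals share, 7 of the 95 were called. The share of all probe sets called in that fit is not given here. In the comparison over both strata, leaving out these 3 raised the share of all probe sets called higher from 3.63% to 4.76%. The share called lower went from 1.3% to 2.47%.

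With anti-CD8, in 4 SIVE and 2 Control animals, limma called 0 of the 95, beside 0.844% of all probe sets higher and 0.209% lower. At an unadjusted p under 0.05 were 20 of the 95 and 15.5% of all probe sets. The 2 smallest unadjusted p-values belonged to COL13A1, a transmembrane collagen, and COL28A1, a beaded collagen, at -0.44 (adjusted p = 0.091) and -0.53 (adjusted p = 0.146). All 7 genes called over all animals had the same sign in both strata. The strata are parts of the animals on which these genes were called, so the shared sign is no independent check. Effects did not differ detectably between the strata: 0 of the 95 passed the test of the difference, and 0.0% of all probe sets passed in either direction. At an unadjusted p under 0.05 were 3 of the 95 and 2.81% of all probe sets. The smallest p-values there were those of ADAMTS3 (-0.59) and COL3A1 (-0.42), each with an adjusted p of 1.00.

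**Figure D5:**
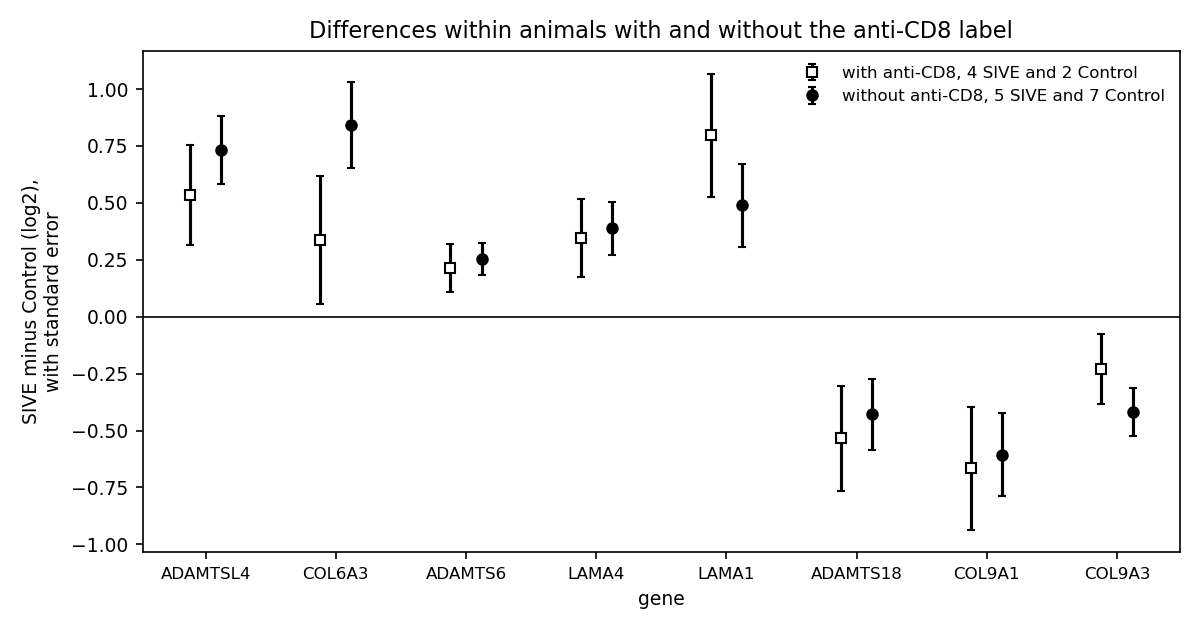
SIVE minus Control (log2, vertical axis) with standard errors for the 7 genes called over all animals and for COL9A3, in animals with anti-CD8 (open squares) and without (filled circles). The 2 estimates of each gene share their sign, and that of COL6A3 is 0.34 with and 0.84 without anti-CD8. The 7 genes were called on these same animals.

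Within the SIVE group no matrix gene passed for the anti-CD8 label, and COL9A2 had the smallest unadjusted p. COL9A2 was at 8.23, 8.49, 8.61 and 8.90 in SIVE animals with anti-CD8 and at 7.58, 7.61, 7.71, 7.79 and 7.92 in SIVE animals without. The 2 sets did not overlap, and the share of named genes that separate these animals so is not given here. The difference was 0.83 ± 0.14 with an unadjusted p of 1.03e-05 and an adjusted p of 0.159. ADAMTS4 had the next smallest p, with a difference of 0.88 ± 0.25 and an adjusted p of 0.304. By limma 0 of the 95 were called, beside 0.0% of all probe sets higher and 0.0019% lower. At an unadjusted p under 0.05 were 13 of the 95 and 15.3% of all probe sets. All SIVE animals with anti-CD8 were 6 years old and those without were younger, so anti-CD8 and age cannot be told apart there. SIVE 2 and SIVE 3, with their high 3′ minus 5′ signals, were also among those with anti-CD8. For COL9A2 they were at 8.49 and 8.61. The part of RNA quality in these differences was not tested.

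Control animals gave 0 calls by limma for anti-CD8 as well, 2 animals with it against 7 without, beside 0.0% of all probe sets in either direction. At an unadjusted p under 0.05 were 18 of the 95 and 15.7% of all probe sets. The smallest p-values were those of COL13A1 (0.38 ± 0.11) and COL9A2 (0.52 ± 0.16), with adjusted p-values of 0.298 and 0.299.

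Set against Control animals without anti-CD8, the SIVE animals without it were low in all 3 collagen IX genes. COL9A2 reached 7.92 in SIVE, while the lowest of the 7 Control animals was at 7.96 and their median at 8.19. COL9A3 was at 6.74 to 7.04 in SIVE and 7.08 to 7.53 in Control. COL9A1 was at 7.31 to 7.73 in SIVE and 7.66 to 8.45 in Control, overlapping in 2 SIVE animals. The share of named genes that separate these 12 animals by group is not given here. A separate fit on the 12 called all 3 collagen IX genes lower, COL9A2 with a difference of -0.44 (adjusted p = 0.0176). That fit called 1.20% of all probe sets lower.

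No called gene followed the virus signal past the threshold by Pearson's r. Within the 9 SIVE animals a viral probe set (coding sequence 9 of the isolate on the array) ranged from 7.53 to 11.22, and its highest Control value was 4.25. The 7 called genes were each set against it, with exact two-sided permutation tests adjusted over the 7. ADAMTS18 had the closest relation, with r = 0.77 (exact p = 0.0111, adjusted p = 0.0775) and rho = 0.90 (exact p = 0.00203, adjusted p = 0.0142). Leaving out SIVE 6 and SIVE 9, farthest from the median of the virus signal, gave r = 0.77 (exact p = 0.0353, adjusted p = 0.247). With the mean of 9 viral probe sets in its place, rho was 0.82 with an adjusted p of 0.0754. ADAMTS18 thus fell in SIVE, and within SIVE was higher where the viral signal was higher, a relation past the threshold by rank with 1 of the 2 virus measures. The adjusted p of r for the other 6 genes ran from 0.545 to 0.828.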

How the data were processed

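Total RNA from hippocampus was hybridised to Affymetrix rhesus arrays, 2 arrays for each of 18 animals. The labels call the arrays technical replicates, without saying whether they share an RNA extract. The authors deposited a table of log2 signals made with RMA, per the submitters' processing notes, whose version those notes leave out. Array medians ran from 5.59 to 5.75. Of 52865 probe sets, 158 control and reporter sets were left out; of the 52707 tested, 24956 carried 1 symbol in the platform annotation, 361 several and 27390 none. No genome position, build or sequence was used here.

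The 2 arrays of an animal were averaged. limma 3.58.1 (R 4.3.3) fitted SIVE against Control by lmFit and eBayes; p-values are two-sided, adjusted by Benjamini-Hochberg across the tested probe sets, and called under 0.05; intervals are 95% intervals of the moderated test. A fit with 1 mean per group and anti-CD8 label gave the stratified contrasts. Nothing in the labels says that equal replicate numbers pair animals of the 2 groups; p-values measure the spread between these animals. Tested on simulated data with this design, 83% of 1.5-fold and 93% of 2-fold changes among 52707 probe sets were recovered, and 4.35% of calls were false. Tables were made with Python 3.11.15, scipy 1.17.1 and pandas 2.3.3.

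The members, gene lists and tests were chosen with earlier results of these data known. Named members are those called, the brightest of each role and a list of well-known MMP, TIMP, collagen, laminin and ADAMTS genes; in the anti-CD8 comparisons the called ones or the 2 with the smallest p; of other lists, at most 4 called genes. Alternatives covered the arrays used, animals left out, age, anti-CD8, replicate number, scaling, dim probe sets, the variance model and averaging over probe sets.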

Additional observations from a re-analysis of the deposited data

Results flagged for a closer look

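In 7 of 58 combinations of a named gene and a group, 1 animal lay far from the other 8 by Dixon's test; chance flags about 1 in 20. Control 8 accounted for 4 of them: COL5A2 was low at 9.09 where the next Control animal was at 9.30, MMP2 was high at 6.68 where the next was at 6.04, MMP24 was high at 7.77 where the next was at 7.29, and TIMP2 was low at 6.45 where the next was at 7.56. Control 8 also had the highest 3′ minus 5′ signal of all animals. SIVE 9 accounted for the other 3: ADAMTS18 was high at 5.46 where the next SIVE animal was at 5.07, LAMA2 was high at 6.36 where the next was at 6.02, and MMP24 was low at 6.95 where the next was at 7.20.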

How the results depend on the processing

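Depending on the setting, 2 to 7 of the matrix genes were called higher, beside 5 in the comparison as reported, and 0 to 11 lower, beside 2. Brackets give the share of all that was tested in a setting and called in the same direction. Higher calls numbered 7 with technical replicate 1 only (3.91%) and 3 with technical replicate 2 only (2.85%). They numbered 7 with both arrays kept and the animal as a random block (4.91%), and 6 with the anti-CD8 label as a covariate (4.76%). In animals without anti-CD8 3 were higher (3.06%), and 3 with the mean over the probe sets of a gene (3.24%). After quantile normalisation 4 were higher (3.47%), and 2 when only probe sets at or above the median level were tested (5.57%). Lower calls numbered 4 with technical replicate 1 only (2.68%) and 5 with both arrays kept and the animal as a random block (1.87%). With age as a covariate 1 was lower (1.01%), and with the anti-CD8 label as a covariate 11 (5.28%). There was 1 with array medians subtracted (0.755%), 1 after quantile normalisation (1.18%) and 1 among the brighter probe sets (1.58%). With the replicate number as a block, 3 were higher (2.28%) and 0 lower (0.311%). Correlations of same-numbered animals ran from -0.488 to 0.0888, which cannot show whether equal numbers share a day or batch. The stratified contrasts share too few replicate numbers for a block. Leaving out 1 animal at a time gave 5 to 6 higher (3.09% to 3.99%) and 1 to 4 lower (0.748% to 1.89%). Without SIVE 2, SIVE 3 and Control 8, the comparison without anti-CD8 called 7 instead of 3, and with age as a covariate the comparison with anti-CD8 called 1 instead of 0. The shares of all probe sets called in those stratified fits are not given here. The cause was not tested.

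ADAMTSL4 and COL6A3 passed in all 12 alternatives in which they were tested and without each of the 18 animals. Their differences ran from 0.62 to 0.81 and from 0.68 to 0.84 over those alternatives. Both were dim, with mean levels of 5.33 and 5.55, and were not tested when only the brighter probe sets were kept. As each has 1 probe set, the mean over probe sets gave the reported differences again. LAMA1 and LAMA4 passed in 9 of 13 alternatives, ADAMTS6 in 9 of 12, ADAMTS18 in 7 of 12 and COL9A1 in 9 of 13. LAMA1 and ADAMTS6 did not pass with technical replicate 2 only, in animals without anti-CD8 or as a mean over probe sets, nor LAMA1 under the block; LAMA4 did not pass with technical replicate 2 only, under the block, after quantile normalisation or as a mean over probe sets. ADAMTS18 did not pass with technical replicate 1 only, under the block, in animals without anti-CD8, without SIVE 2, SIVE 3 and Control 8, or after quantile normalisation; COL9A1 did not pass with technical replicate 1 only, under the block, with age as a covariate or with array medians subtracted. Values of single genes were followed for the 28 named genes and the TIMP1 probe set with the second highest mean. Among those values no called difference changed sign, 33 lost a call, 7 gained one and 852 kept their side of the threshold. Calls gained by the other matrix genes are not in these counts. A weak change in a dim gene may be below what these arrays resolve: 38 of the 95 genes had mean signals under the median of all probe sets.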
